A study of Mus musculus with 10 samples.

Results

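The 10 genes followed here belong to interleukin-7 receptor signalling, in bone marrow B cells of mice: the receptor chain genes Il7r, Il2ra and Il2rg, the kinase genes Jak1 and Jak3, the transcription factor genes Stat5a and Stat5b, and the Pim kinase genes Pim1, Pim2 and Pim3. They were chosen by symbol through the GRCm38 annotation of the count table's Ensembl identifiers, which gave 10 of 55573 genes, and all 10 were among the 12772 genes with enough counts to be tested. All libraries carried the labels PAX5-ELN, which joins the B-lineage factor gene PAX5 to the elastin gene and is known from B-cell acute lymphoblastic leukaemia, and H2B-GFP, a fluorescent histone that is diluted at each division, and all were labelled with doxycycline and a time of 35 days. There were 5 GFP high libraries, called quiescent by the study, and 5 GFP low ones, called proliferating. Neither the strain, the age of the mice nor the promoters that drive the transgenes are given in the sources used here, and no wild-type group was analysed here. Nothing in the labels says that the libraries came from separate animals, so a p-value measures only the spread between these samples.

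Interleukin-7 from the bone marrow stroma is the main growth and survival factor of early mouse B cells. Its receptor joins the alpha chain, encoded by Il7r, to the common gamma chain, encoded by Il2rg. JAK1 binds the alpha chain and JAK3 the gamma chain, and they phosphorylate STAT5A and STAT5B, which then enter the nucleus and switch on genes for survival and growth. Pim kinases promote survival and growth and are known as STAT5 targets, and the IL-2 receptor alpha chain, CD25, encoded by Il2ra, is a surface marker of pre-B cells and a STAT5 target in lymphocytes.

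The libraries held 11347097 to 13838769 gene counts (GFP high) and 10640894 to 14858520 (GFP low). Values below are CPM, read counts scaled to a common library size by the TMM method, and a difference passed the test at an adjusted p under 0.05 (edgeR quasi-likelihood test, Benjamini-Hochberg over 12772 genes). Libraries with the same replicate number deviated together in the 2 groups, so the numbers may pair the libraries. This pairing was read from the same expression values, and the labels do not state it. The main fit therefore has no covariates, and the fit with the number as a block is given beside each result whose call it changes. Calls that only the block gives rest on this pairing. Libraries 4 and 5 of both groups stood apart from libraries 1 to 3 on the first component of the deviations from the group means, which held 31.5% of the variance, and the labels name no batch for this. The B-lineage markers were abundant, with a summed level of 11860 to 13880 CPM in GFP high, against 8975 to 10150 CPM in GFP low for 9 genes, of which 4 rose, or 9 with the replicate block. All 5 proliferation markers fell, with a sum of 1140 to 1621 CPM in GFP high, against 2437 to 3223 CPM in GFP low. Beside these marker counts, 12.0% of all tested genes rose and 15.4% fell, or 20.7% and 21.0% with the replicate block.

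Of the 10 genes, 5 rose in GFP high, namely Il7r, Il2ra, Jak1, Jak3 and Stat5b, and 0 fell. Among all tested genes 12.0% rose and 15.4% fell. With the replicate block 6 rose, Pim1 in addition, and 0 fell, against 20.7% and 21.0% of all tested genes. The median log2 fold change of the 10 genes was 0.36, against 0.03 over all tested genes. The 10 genes were chosen with earlier results of these data known, so their contrast with all tested genes is a description only. Of the 3 receptor chains 2 rose, both kinases rose, 1 of 2 STAT5 genes rose, and 0 of 3 Pim genes passed. The levels did not overlap between the groups for 4 of the 10 genes (Il7r, Il2ra, Jak1 and Jak3), against 20.5% of all tested genes. In bulk libraries fewer cells of a type and less RNA per cell cannot be told apart, and this holds for each difference below.

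**Figure D1:**
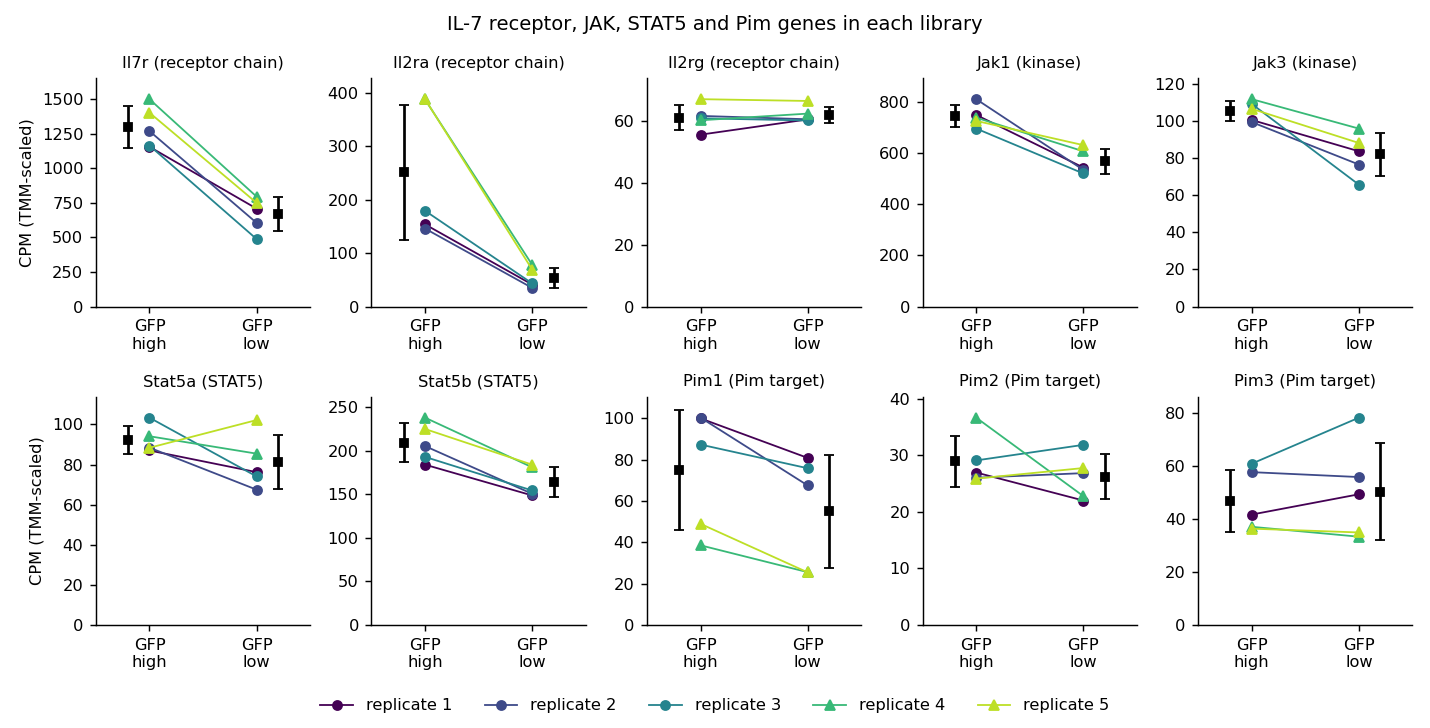
TMM-scaled CPM of each gene in GFP high (left in each panel) and GFP low (right), with lines that join libraries of the same replicate number, circles for replicates 1 to 3, triangles for 4 and 5, and black squares for the mean with SD (n = 5 each). Il2ra lies at 146 to 389 CPM in GFP high, above 34.9 to 78.2 CPM in GFP low, while Il2rg lies within 55.5 to 66.9 CPM in both groups.

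Among the receptor chains, Il7r (ENSMUSG00000003882, GRCm38 chromosome 15, 9505788 to 9530176, minus strand) had the highest level per exon length. It had 1157, 1271, 1166, 1502 and 1404 CPM in GFP high libraries 1 to 5 and 709, 606, 489, 796 and 751 CPM in GFP low libraries 1 to 5. Each GFP high library was above each GFP low library, and within each group libraries 4 and 5 had the highest values. The log2 fold change was 0.96 ± 0.13 (SE, adjusted p = 0.000202), a 1.94-fold difference, and it lay between 0.705 and 1.253 in the 5 same-numbered pairs.

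Il2ra (ENSMUSG00000026770, chromosome 2, 11642807 to 11693193, plus strand) showed the largest difference of the 10 genes. It had 153.9, 146, 179, 388 and 389 CPM in GFP high libraries 1 to 5, against 41.2, 34.9, 43.4, 78.2 and 69.3 CPM in GFP low libraries 1 to 5. The groups did not overlap, and libraries 4 and 5 were the highest of their group on both sides. Fitted as a log2 fold change, this was 2.23 ± 0.34 (adjusted p = 0.000457), a 4.70-fold difference. Each of the 5 pairs showed it, from 1.89 to 2.48.

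Il2rg (ENSMUSG00000031304, chromosome X, 101264378 to 101268255, minus strand), whose product is shared by the receptors of several interleukins, did not pass the test. It had 55.5, 61.5, 60.7, 60.1 and 66.9 CPM in GFP high libraries 1 to 5 and 60.4, 60.4, 60.04, 62.3 and 66.3 CPM in GFP low libraries 1 to 5. The groups overlapped throughout, and 3 of 5 pairs were higher in GFP high. The log2 fold change was -0.02 ± 0.08 (adjusted p = 0.857) with a 95% interval of -0.19 to 0.15, and its sign turned with upper-quartile scaling (0.01). The annotated exons of Il2rg share 728 bases, or 30.5% of its exon length, with Gm20489 on the same strand, which had 2 counts in all libraries together. Of all stretches of 50 bases in the longest annotated transcript of Il2rg, 42.0% also occur in Gm20489. The sources do not say whether reads in the shared bases were counted, so the level of Il2rg is uncertain.

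The promoter windows of the 2 receptor chain genes that rose are printed because STAT factors bind the palindrome TTCNNNGAA, and Il2ra is a known target of STAT5. Each is the RefSeq window on GRCm38.p6, 250 bases before to 50 after the annotated start, 5′ to 3′ on the gene's strand, in lower case with matches to the palindrome in capitals. The Il7r window is chr15:9529827-9530126 on the minus strand and that of Il2ra is chr2:11642542-11642841 on the plus strand.
Il7r: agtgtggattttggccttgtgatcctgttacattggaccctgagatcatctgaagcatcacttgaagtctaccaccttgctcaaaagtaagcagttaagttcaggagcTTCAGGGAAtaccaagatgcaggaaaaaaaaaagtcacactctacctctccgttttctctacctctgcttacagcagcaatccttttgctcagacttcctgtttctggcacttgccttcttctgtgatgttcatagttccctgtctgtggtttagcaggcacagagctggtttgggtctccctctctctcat
Il2ra: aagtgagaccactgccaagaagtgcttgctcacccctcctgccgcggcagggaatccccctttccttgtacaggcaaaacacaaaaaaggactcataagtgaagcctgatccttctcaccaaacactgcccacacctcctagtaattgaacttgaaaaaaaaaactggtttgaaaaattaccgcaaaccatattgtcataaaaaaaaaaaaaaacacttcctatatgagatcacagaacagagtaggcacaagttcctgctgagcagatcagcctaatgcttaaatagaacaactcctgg
The Il7r window held 1 match, TTCAGGGAA, from position -142 to -134 relative to the RefSeq start, and the Il2ra window held 0. The RefSeq start of Il7r, 9529876, is 41 and 48 bases before the starts of its GENCODE transcripts with a coding sequence and 300 bases after that of a transcript without one, which sets the end of the gene given above. The match therefore lies upstream of the coding transcripts and inside the gene as GENCODE draws it. Windows were found for all 10 genes, 13 in all, and 1 of the 13 held a match, against 8.30% of all 32851 windows. The search covers both strands, since the palindrome reads the same on each. A match is a stretch of letters and no evidence of binding, and enhancers outside these windows were not searched.

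Jak1 (ENSMUSG00000028530, chromosome 4, 101152367 to 101265282, minus strand) encodes the kinase bound to the receptor alpha chain. It had 750.3, 812, 697, 739.5 and 727 CPM in GFP high libraries 1 to 5, against 544, 535, 521, 608 and 632 CPM in GFP low libraries 1 to 5. All GFP high libraries were above all GFP low libraries. Fitted as a log2 fold change, this was 0.39 ± 0.07 (adjusted p = 0.00215), a 1.31-fold difference. Libraries 1 to 3 of each group gave 0.52 by themselves (adjusted p = 0.00226), and libraries 4 and 5 gave 0.23 (adjusted p = 0.0301).

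Jak3 (ENSMUSG00000031805, chromosome 8, 71676296 to 71690575, plus strand) encodes the kinase bound to the common gamma chain. It had 100.4, 99.3, 109, 112 and 106 CPM in GFP high libraries 1 to 5 and 83.6, 76.4, 65.6, 95.8 and 88.0 CPM in GFP low libraries 1 to 5. The groups did not overlap, though the highest GFP low library, number 4, came close to the lowest GFP high library, number 2. The log2 fold change was 0.36 ± 0.10 (adjusted p = 0.0174), a 1.29-fold difference. From libraries 1 to 3 of each group it was 0.48 and passed (adjusted p = 0.0129). From libraries 4 and 5 it was 0.23 (adjusted p = 0.138), and without both libraries numbered 3 it was 0.28 (adjusted p = 0.0776), and neither passed. Its exons share 404 bases, or 7.55% of its exon length, with Insl3 on the same strand, which had 9 counts in all.

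The STAT5 genes lie side by side on chromosome 11 and encode closely related proteins. Stat5b (ENSMUSG00000020919, 100780731 to 100850724, minus strand) had 184, 205, 193, 238 and 225 CPM in GFP high libraries 1 to 5 and 149, 150.5, 154, 181 and 184 CPM in GFP low libraries 1 to 5. GFP high library 1 lay at the level of GFP low library 5, so the groups just met, while all 5 pairs were higher in GFP high, by 0.29 to 0.45 on the log2 scale. Fitted as a log2 fold change, this was 0.35 ± 0.10 (adjusted p = 0.0184), a 1.28-fold difference. Libraries 1 to 3 gave 0.39 (adjusted p = 0.0125) and libraries 4 and 5 gave 0.33 (adjusted p = 0.0176). Leaving out both libraries numbered 3 ended the call (0.36, adjusted p = 0.0598).

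Stat5a (ENSMUSG00000004043, 100859351 to 100885169, plus strand) had 87.0, 88.4, 103, 94.1 and 88.4 CPM in GFP high libraries 1 to 5 and 76.2, 67.5, 74.1, 85.5 and 102 CPM in GFP low libraries 1 to 5. GFP low library 5 was above 4 of the 5 GFP high libraries, and the groups overlapped. The log2 fold change was 0.19 ± 0.11 (adjusted p = 0.236, 95% interval -0.05 to 0.43). Libraries 1 to 3 gave 0.38 and passed by themselves (adjusted p = 0.0301), whereas libraries 4 and 5 gave -0.06 (adjusted p = 0.774). Of all stretches of 50 bases in the longest annotated transcript, 10.8% of those of Stat5a also occur in Stat5b, and 11.8% of those of Stat5b in Stat5a. The counting of reads that match both genes is not stated, so their split is uncertain to that extent. Stat5a also shares 72 exon bases, or 1.01% of its exon length, with Stat3 on the opposite strand, which had 30440 counts to the 11293 of Stat5a and itself rose (0.60), and the libraries do not mark strand.

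The Pim genes encode serine and threonine kinases with overlapping roles in survival. Pim1 (ENSMUSG00000024014, chromosome 17, 29490753 to 29496112, plus strand) had 99.9, 100.3, 87.3, 38.5 and 48.9 CPM in GFP high libraries 1 to 5, against 80.8, 67.5, 75.8, 25.6 and 25.5 CPM in GFP low libraries 1 to 5. Libraries 4 and 5 were the lowest of their group on both sides, the reverse of Il2ra, and the groups overlapped. Within each of the 5 pairs Pim1 was higher in GFP high, by 0.20 to 0.93 on the log2 scale. Its log2 fold change of 0.45 ± 0.37 missed the threshold (adjusted p = 0.398), and with the replicate block it was 0.51 ± 0.10 and passed (adjusted p = 0.00136). Libraries 1 to 3 gave 0.38 (adjusted p = 0.0294) and libraries 4 and 5 gave 0.76 (adjusted p = 0.00672). The antisense gene Gm26885 overlaps 14.5% of the exon length of Pim1 and had 32 counts in all.

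Pim2 (ENSMUSG00000031155, chromosome X, 7878262 to 7883432, plus strand) is a family member abundant in lymphoid tissue. It had 27.0, 26.05, 29.1, 36.7 and 25.9 CPM in GFP high libraries 1 to 5 and 22.02, 26.9, 31.9, 22.8 and 27.8 CPM in GFP low libraries 1 to 5. The groups overlapped, and 2 of 5 pairs were higher in GFP high. Its log2 fold change was 0.14 ± 0.14 (adjusted p = 0.488, 95% interval -0.16 to 0.44).

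Pim3 (ENSMUSG00000035828, chromosome 15, 88862186 to 88865726, plus strand) had 41.7, 57.7, 60.9, 37.1 and 36.4 CPM in GFP high libraries 1 to 5 and 49.3, 55.8, 78.3, 33.3 and 34.9 CPM in GFP low libraries 1 to 5. As for Pim1, libraries 4 and 5 were the lowest of each group. The groups overlapped, and 3 of 5 pairs were higher in GFP high. Fitted as a log2 fold change, this was -0.10 ± 0.23 (adjusted p = 0.776, 95% interval -0.61 to 0.40), and its sign turned in libraries 4 and 5 by themselves (0.09).

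**Figure D2:**
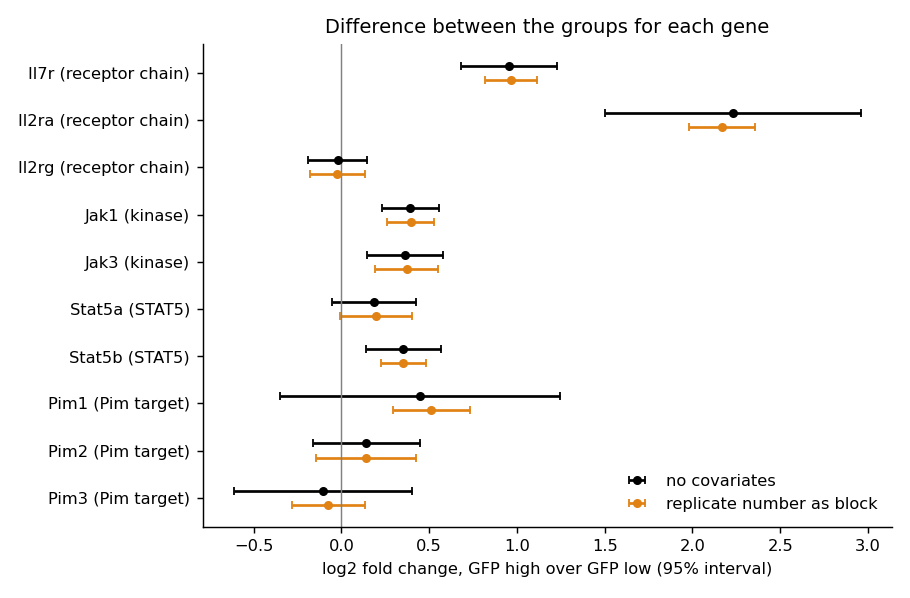
Log2 fold change of each gene, GFP high over GFP low, with 95% intervals from the edgeR fit without covariates (black) and with the replicate number as a block (orange). The intervals of Il7r, Il2ra, Jak1, Jak3 and Stat5b lie above 0 in both fits, that of Pim1 with the block (0.29 to 0.73), and those of Il2rg, Stat5a, Pim2 and Pim3 include 0 in both.

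Levels were compared between genes as CPM per kb of annotated exon. In GFP high the order was Il7r (278.7 ± 32.3, SD, n = 5), Jak1 (103 ± 5.87), Il2ra (44.0 ± 22.01), Stat5b (37.7 ± 4.02), Il2rg (25.5 ± 1.71), Pim1 (22.3 ± 8.70), Jak3 (19.7 ± 1.003), Pim3 (19.3 ± 4.82), Stat5a (12.9 ± 0.952) and Pim2 (10.35 ± 1.61). Il7r lay above Jak1, Jak1 above Il2ra, Stat5b above Il2rg and Pim3 above Stat5a without overlap, while the other neighbours in the order overlapped. In GFP low the order was Il7r (144 ± 26.5), Jak1 (78.6 ± 6.76), Stat5b (29.5 ± 3.12), Il2rg (25.9 ± 1.104), Pim3 (20.7 ± 7.53), Pim1 (16.4 ± 8.14), Jak3 (15.3 ± 2.15), Stat5a (11.4 ± 1.89), Pim2 (9.395 ± 1.43) and Il2ra (9.35 ± 3.35). From Stat5b down to Il2ra each gene overlapped the next one. Il2ra thus held place 3 of 10 in GFP high and place 10 of 10 in GFP low, while Il7r and Jak1 led in both groups. With the length of the longest transcript in place of all exons, the first 7 places in GFP high and the places of Il7r, Jak1, Pim3, Pim2 and Il2ra in GFP low were the same.

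**Figure D3:**
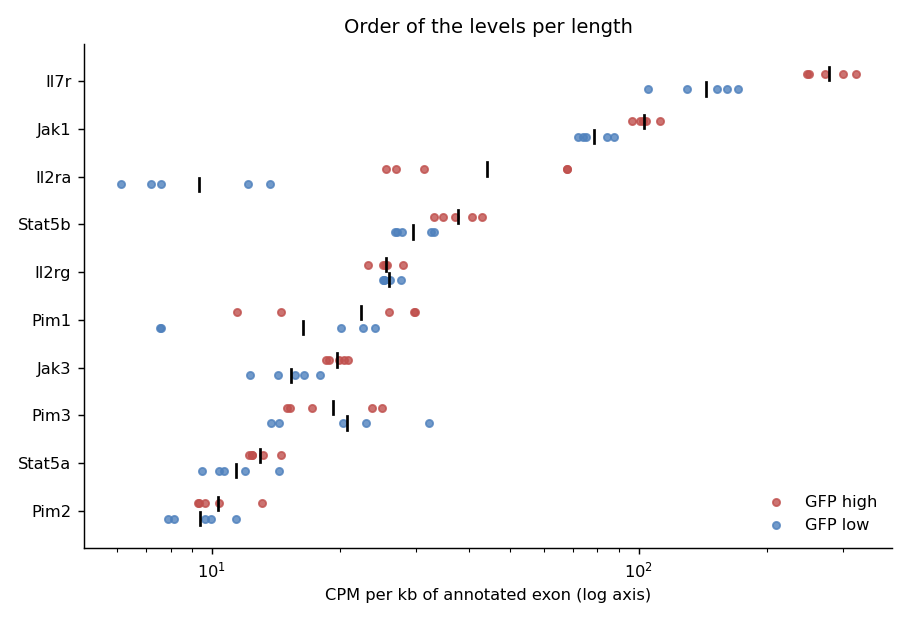
CPM per kb of annotated exon on a log axis for each library, GFP high (red, upper row of each gene) and GFP low (blue, lower row), with the group mean as a black bar and genes ordered by the GFP high mean. Il7r lies highest in both groups (248 to 322 in GFP high, 105 to 171 in GFP low), and Il2ra is at 25.6 to 68.0 in GFP high, against 6.11 to 13.7 in GFP low.

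Ratios between genes of the same library, which hardly depend on library scaling, were compared for 6 pairs (two-sided exact permutation test, Benjamini-Hochberg over 6). Il7r over Il2rg was 20.7, 20.5, 19.05, 24.8 and 20.8 in GFP high libraries 1 to 5, against 11.7, 9.96, 8.08, 12.7 and 11.25 in GFP low libraries 1 to 5. This 1.99-fold difference gave p = 0.00794 in the exact test, the smallest that 5 against 5 libraries allow (adjusted p = 0.0159). Il2ra over Il7r was 0.115 to 0.277 in GFP high, against 0.0584 to 0.0988 in GFP low, a 2.27-fold difference (exact p = 0.00794, adjusted p = 0.0159). Hence the difference of Il2ra was larger than that of Il7r in the same libraries. Il7r over the sum of Stat5a and Stat5b was 3.93 to 4.52 in GFP high, against 2.14 to 3.15 in GFP low, a 1.58-fold difference (exact p = 0.00794, adjusted p = 0.0159). All 3 of these ratios were higher in GFP high in 5 of 5 pairs, where the paired exact test cannot go below p = 0.0625.

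The other 3 ratios did not pass. Jak1 over Jak3 was 6.37 to 8.15 in GFP high, against 6.32 to 7.89 in GFP low (log2 difference 0.02, exact p = 0.81). Stat5b over Stat5a was 1.86 to 2.54 in GFP high, against 1.795 to 2.22 in GFP low (log2 difference 0.15, exact p = 0.159, adjusted p = 0.238). Pim1 over Pim2 was 1.05 to 3.80 in GFP high, against 0.919 to 3.61 in GFP low (log2 difference 0.38, exact p = 0.484, adjusted p = 0.581).

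Other genes of the pathway were described by 5 lists of known roles, 46 genes in all, of which 40 were tested. Of these 13 rose, 3 fell and 24 did not pass, beside 12.0% and 15.4% of all tested genes, with a median log2 fold change of 0.31, against 0.03 over all tested genes. With the replicate block 25 rose and 4 fell, beside 20.7% and 21.0% of all tested genes. These lists too were chosen with earlier results of these data known. Counts of a few genes per list are read against the same shares. Of the 5 tested cytokine and other receptor genes 2 rose, 0 fell and 3 did not pass. The interleukin-21 receptor gene Il21r fell when the replicate block was used (-0.48 ± 0.14, adjusted p = 0.0154, against 0.196 without it). Neither libraries 1 to 3 (-0.46, adjusted p = 0.184) nor libraries 4 and 5 (-0.49, adjusted p = 0.171) gave this call by themselves. Il4ra, the interleukin-4 receptor chain that also pairs with the common gamma chain, had 77.2 ± 9.84 CPM in GFP high, against 37.9 ± 5.17 CPM in GFP low (log2 fold change 1.025 ± 0.12, adjusted p = 7.6e-05). The cytokine gene Il15 rose at a low level, with 8.61 ± 2.54 CPM in GFP high, against 4.68 ± 0.292 CPM in GFP low (0.88 ± 0.23, adjusted p = 0.0127), a call that libraries 4 and 5 did not give by themselves (0.64, adjusted p = 0.218), nor the fit without both libraries numbered 3 (0.81, adjusted p = 0.0676). Il15ra, the private chain of the interleukin-15 receptor, had 18.4 ± 4.05 CPM in GFP high, against 14.5 ± 1.53 CPM in GFP low (0.34 ± 0.17, adjusted p = 0.145).

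The 7 other JAK and STAT genes had a median of 0.50, and 4 of them rose, 0 fell and 3 missed the threshold. Stat3, a mediator of cytokines such as interleukin-6, had 283 ± 21.9 CPM in GFP high, against 187 ± 22.2 CPM in GFP low (0.60 ± 0.10, adjusted p = 0.000649). Stat6, the mediator of interleukin-4, rose by 0.50 ± 0.09 and Stat2, a mediator of interferons, by 0.62 ± 0.14. The fourth was the kinase gene Tyk2 (0.71 ± 0.15, adjusted p = 0.00476), which the naming rule did not pick and which was chosen on its values. Under the block 6 rose, with the kinase gene Jak2 (0.25 ± 0.08, adjusted p = 0.0202) and Stat4 (0.29 ± 0.08, adjusted p = 0.00824), a mediator of interleukin-12, added to these 4. Libraries 1 to 3 by themselves gave both Jak2 (0.36) and Stat4 (0.38), each with adjusted p = 0.0302. Libraries 4 and 5 by themselves gave neither Jak2 (0.09, adjusted p = 0.635) nor Stat4 (0.18, adjusted p = 0.295).

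Of 12 inhibitors and phosphatases 2 rose, 1 fell and 9 did not pass, which is near the share of all tested genes in both directions. The block gave 6 that rose and 1 that fell, and the 4 added were the inhibitor genes Socs1 (0.57 ± 0.19, adjusted p = 0.0315) and Socs3 (1.29 ± 0.10, adjusted p = 1.08e-06) and the phosphatase genes Ptpn6 (0.22 ± 0.06, adjusted p = 0.00672) and Ptprc (0.26 ± 0.07, adjusted p = 0.00792). Socs1 (0.21, adjusted p = 0.607) and Ptprc (0.24, adjusted p = 0.113) did not pass in libraries 1 to 3 by themselves. Ptpn6 passed neither there (adjusted p = 0.101) nor in libraries 4 and 5 (adjusted p = 0.11), whereas Socs3 passed in both. The STAT5-induced inhibitor gene Cish rose to 42.45 ± 18.95 CPM in GFP high, against 15.7 ± 9.03 CPM in GFP low (1.43 ± 0.39, adjusted p = 0.0157), and Socs2 of the same family rose by 0.44 ± 0.10. Sh2b3, an adaptor that restrains cytokine receptors, fell to 93.97 ± 12.8 CPM in GFP high, against 129 ± 15.4 CPM in GFP low (-0.46 ± 0.11, adjusted p = 0.0095), a call that libraries 4 and 5 did not give by themselves (-0.33, adjusted p = 0.0612). Of 9 tested genes reported as induced by STAT5 or interleukin-7, 3 rose, 1 fell and 5 did not pass. The G1 cyclin gene Ccnd2 rose by 1.95 ± 0.36 and the survival gene Bcl2 by 0.97 ± 0.18, and the cytokine gene Osm, named after its values were seen, was just past the threshold (0.63 ± 0.22, adjusted p = 0.0498). The Osm call was lost in libraries 1 to 3 by themselves (adjusted p = 0.0894) and without both libraries numbered 3 (adjusted p = 0.131). The gene that fell was Lrp8, a lipoprotein receptor gene, at 2 to 12 counts per GFP high library, against 26 to 62 per GFP low library (-2.88 ± 0.50). Under the block 7 rose, as the survival gene Mcl1 (0.57 ± 0.05, adjusted p = 3.07e-06), the cyclin gene Ccnd3 (0.19 ± 0.04, adjusted p = 0.0033), the growth regulator Myc (0.26 ± 0.06, adjusted p = 0.00551) and the stress gene Gadd45g (0.53 ± 0.16, adjusted p = 0.0186) joined them. Mcl1 also passed in libraries 1 to 3 and in libraries 4 and 5 by themselves. Myc passed in libraries 4 and 5 but not in 1 to 3 (0.18, adjusted p = 0.631). Ccnd3 (adjusted p = 0.0714 and 0.0814) and Gadd45g (adjusted p = 0.194 and 0.0526) passed in neither. Of 7 genes reported as restrained by interleukin-7 receptor signalling, 2 rose, 1 fell and 4 did not pass. Foxo1, a factor that drives early B-cell genes and is held back by growth signals, rose by 0.60 ± 0.08 and the recombinase gene Rag1 by 0.88 ± 0.19, whereas Igkc, the constant region of the kappa light chain, fell (-1.58 ± 0.205, adjusted p = 0.000173). The block added 2 rises, as the recombinase gene Rag2 (0.67 ± 0.06, adjusted p = 4.41e-06) and the transcription factor gene Irf4 (0.48 ± 0.06, adjusted p = 6.11e-05) then passed.

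**Figure D4:**
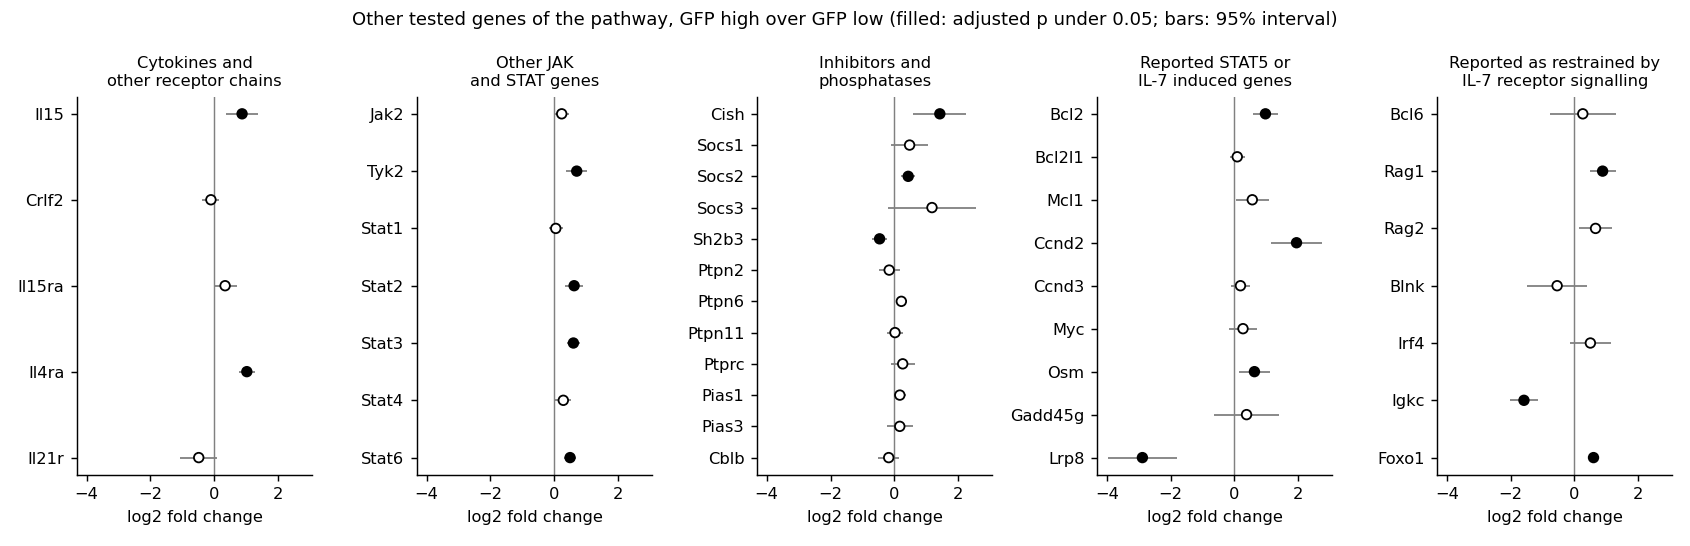
Log2 fold change, GFP high over GFP low, of the 40 other tested pathway genes in 5 lists, with 95% intervals; filled points had an adjusted p under 0.05. Of these points 13 lie to the right as rises, among them Ccnd2 (1.95) and Cish (1.43), and 3 to the left, Lrp8 (-2.88), Igkc (-1.58) and Sh2b3 (-0.46).

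Because T cells and innate lymphoid cells also carry the interleukin-7 receptor and CD25, their markers were read beside these results. Counts of markers that rose or fell stand beside 12.0% and 15.4% of all tested genes, or 20.7% and 21.0% with the replicate block. Of the T-cell markers, 9 had a sum of 0.437 to 1.30 CPM in GFP high, against 0.157 to 1.07 CPM in GFP low, no single value was above 0.693 CPM, and Cd8a was at 0 in every library. The tenth, Cd5, which some B cells express, had 0.875 to 2.25 CPM in GFP high, against 0.775 to 1.49 CPM in GFP low. Of the 8 NK and innate lymphoid markers, Klrb1c rose (274 ± 62.8 CPM in GFP high, against 107 ± 43.4 CPM in GFP low, 1.36 ± 0.26, adjusted p = 0.00227), while the other 7 summed to 1.12 to 3.81 CPM in GFP high, against 0.430 to 2.20 CPM in GFP low. The 8 neutrophil and monocyte markers summed to 77.1 to 122 CPM in GFP high, against 65.2 to 105 CPM in GFP low, and 0 of their 5 tested members passed. Of these 5, 2 rose under the block, the lysozyme gene Lyz2 (0.39 ± 0.09, adjusted p = 0.00259, higher in 5 of 5 pairs) and S100a9 (1.30 ± 0.46, adjusted p = 0.0375). S100a9 had only 4 to 62 counts per library, all of them even. Libraries 1 to 3 by themselves gave both Lyz2 (0.52, adjusted p = 0.0232) and S100a9 (2.16, adjusted p = 0.0273). Libraries 4 and 5 gave neither Lyz2 (0.24, adjusted p = 0.185) nor S100a9 (0.33, adjusted p = 0.72). The part of neutrophils and monocytes in the results above was not tested. The 5 basophil and mast cell markers summed to at most 1.26 CPM in GFP high, against 0.990 CPM in GFP low. The 7 mature B and plasma cell markers summed to 84.4 to 113 CPM in GFP high, against 90.9 to 141.5 CPM in GFP low, and of 6 tested 2 rose and 1 fell. The gene that fell was Jchain, the gene of the chain that joins IgM and IgA subunits, at 0.140 to 1.17 CPM in GFP high, against 31.0 to 81.5 CPM in GFP low (-6.48 ± 0.44, adjusted p = 6.18e-06), the lowest fold change of all tested genes. Ighd, the IgD heavy chain gene, rose (0.90 ± 0.18, adjusted p = 0.00339), as did the plasma cell marker Sdc1 (0.91 ± 0.29, adjusted p = 0.0339), but the Sdc1 call was lost in libraries 1 to 3 by themselves (adjusted p = 0.142) and without both libraries numbered 3 (adjusted p = 0.118). Prdm1, a plasma cell factor gene, rose under the block (0.93 ± 0.15, adjusted p = 0.000365) but did not pass in libraries 4 and 5 by themselves (0.65, adjusted p = 0.108). Fcer2a, the marker of this list with too few counts to be tested, had 0.437 to 2.67 CPM in GFP high, against 0 to 0.141 CPM in GFP low. The groups did not overlap, but these are 6 to 38 counts per GFP high library, against 0 to 2 per GFP low library. These 5 were named after their values were seen. What part shifts among B-lineage stages had in the differences of Il7r and Il2ra was not tested.

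The genes whose levels moved most like Il7r and Il2ra over the 10 libraries were found by the root mean square difference of log2 CPM, each gene centred on its own mean, among 9462 other protein-coding genes. Nearest to Il7r were Ripor2 (0.0955, with 527 ± 49.6 CPM in GFP high, against 269 ± 50.2 CPM in GFP low), Hip1 (0.126) and Pear1 (0.134), against a median of 0.580 over all genes compared. Nearest to Il2ra were the cyclin gene Ccnd2 (0.275), Fcer1g (0.333), which encodes the common gamma chain of Fc receptors, and Scin (0.339), which encodes an actin-severing protein, against a median of 1.24. These are descriptions over 10 libraries in 2 groups, and the group difference is part of each value.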

How the data were processed

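Polyadenylated RNA of 10 samples, 5 GFP high and 5 GFP low, was made into SMART-Seq v4 libraries, a kit that does not mark strand, and each column was matched to its sample by title. The deposited table held raw read counts per Ensembl gene, not normalized by the authors as far as the values show. The submitters' processing notes name mm10, STAR, featureCounts and DESeq2. Versions, strand setting and the handling of reads with several matches are not given in the sources used here. Symbols, positions and exon lengths came from GENCODE M21 (GRCm38, the build mm10), which matched 99.833% of identifiers. The others held 4219 counts.

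Counts were tested in edgeR 4.0.16 (R 4.3.3) with filterByExpr, TMM and the quasi-likelihood test, GFP high over GFP low, without covariates. SE is the absolute log2 fold change divided by the square root of F. Ratios used CPM with 0.5 added to both terms. The code was tested on simulated counts of independent libraries. These had no effect of the replicate number and no split of libraries 1 to 3 from 4 and 5, so the fits were not checked under either. A count of 3, the floor for counting error, is 0.202 to 0.282 CPM. No 2 libraries agreed within sampling noise (lowest chi-square per gene 7.33). Both the floor and this check take each count as 1 independent read. The counts of Lrp8, Jchain, Igkc, S100a9 and Fcer2a were even in every library, whereas Il7r also had odd counts. Why they were even was not tested. Where counts rise in steps of 2, low counts hold fewer independent reads than their number, and the floor and the chi-square do not allow for this. Same-numbered libraries had correlated deviations from their group means across genes in all 5 pairs (r = 0.248 to 0.353). For each GFP high library this r was above its r with any GFP low library of another number. The margin was small for library 4 (0.349 against 0.292) and library 5 (0.353 against 0.321). Alternatives were the replicate block, other scalings and filters, DESeq2 1.42.0, each library left out, and, chosen after seeing the data, replicates 1 to 3, replicates 4 and 5, and no libraries numbered 3. The genes and lists were chosen with earlier results of these data known. Beyond the 10 genes, the rule named the 3 genes of lowest p per pathway list and the 3 most like Il7r and Il2ra. Promoter windows are from RefSeq (GRCm38.p6).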

Additional observations from a re-analysis of the deposited data

How the results depend on the processing

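All 5 calls among the 10 genes, and the 5 genes that did not pass, kept their side of the threshold with RLE or upper-quartile scaling, without a filter, with a stricter filter, with DESeq2 and with any 1 library left out, and Pim1 alone crossed it with the replicate block. Of 60 planned values for the 10 genes 58 kept both direction and call. The sign of Il2rg turned with upper-quartile scaling (0.013) and in replicates 1 to 3 alone (0.00027), that of Stat5a in replicates 4 and 5 alone (-0.057), and that of Pim3 in replicates 4 and 5 alone (0.089). The cause was not tested. With 1 library left out Il2rg lay between -0.046 and 0.033, Pim3 between -0.21 and 0.12, and the log2 difference of Jak1 over Jak3 between -0.031 and 0.068. Stat5b had its highest adjusted p of 0.0491 without GFP low library 3 and Jak3 of 0.043 without GFP low library 2. Without both libraries numbered 3 the genes that rose numbered 3 of the 10 and 926 of all genes, in a fit with fewer samples. With the replicate block 2645 of all genes rose and 2688 fell, against 1538 and 1973 without it, and 3486 of 3511 calls were shared. That block gave 25 other pathway genes that rose, against 13. For the ratios, the replicate block as an exact paired test left the log2 differences at 0.99 for Il7r over Il2rg, 1.18 for Il2ra over Il7r and 0.66 for Il7r over STAT5, each with adjusted p = 0.125, a test that cannot pass with 5 pairs. With the longest transcript as the length 12 of 20 levels moved by more than 1 SD. Among other named genes, Il15 (0.64) and Sh2b3 (-0.33) did not pass in replicates 4 and 5 alone, nor Il15 without both libraries numbered 3 (0.81). Osm and Sdc1 lost their calls in libraries 1 to 3 alone and without both libraries numbered 3. Depth did not limit the 10 genes, which had at least 290 counts in each library, but Lrp8 was near the floor in GFP high.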

Other observations

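Several STAT-responsive genes differed between libraries 1 to 3 and libraries 4 and 5 in both groups, as Il2ra and Pim1 did, and they did so in both directions. They were picked on their values, the split is not in the labels, and no test was made of it. Socs3, an inhibitor of cytokine receptor signalling, had 969, 936 and 857 CPM in GFP high libraries 1 to 3 and 208 and 174 CPM in GFP high libraries 4 and 5. In GFP low it had 597, 314.5 and 332 CPM in libraries 1 to 3 and 74.5 and 67.4 CPM in libraries 4 and 5. The survival gene Mcl1 went the same way, with 1723, 1852 and 1733 CPM in GFP high libraries 1 to 3 and 1087 and 915 CPM in libraries 4 and 5, against 1222, 1163 and 1270 CPM in GFP low libraries 1 to 3 and 663 and 632 CPM in libraries 4 and 5. Cish went the other way, with 28.1 to 28.9 CPM in GFP high libraries 1 to 3 and 62.6 and 63.8 CPM in libraries 4 and 5, and in GFP low with 8.68 to 9.59 CPM in libraries 1 to 3 and 26.1 and 25.1 CPM in libraries 4 and 5. Within all 5 pairs each of these 3 genes was higher in GFP high.

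Transcripts of the 2 cytokines that signal through Il7r were near the floor. Il7 had 0 to 1.09 CPM in GFP high, against 0.194 to 0.786 CPM in GFP low, and Tslp, which signals through Il7r and Crlf2, had 0 CPM in GFP high, against 0 to 0.430 CPM in GFP low. Crlf2 had 22.9 ± 2.37 CPM in GFP high, against 24.6 ± 2.80 CPM in GFP low (-0.10 ± 0.12, adjusted p = 0.582). Il2rb, the beta chain that IL-2 signalling needs beside CD25, had 0 to 0.14 CPM in GFP high, against 0 CPM in GFP low. The Cish promoter window held 2 matches to TTCNNNGAA, as 0.457% of all windows held 2 or more.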
